A study of Homo sapiens with 30 samples.

Results

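The 9 genes described here encode phosphatases that act on the C-terminal domain (CTD) of RPB1, the catalytic subunit of RNA polymerase II, and proteins that associate with them: SSU72, CTDP1, CTDSP1, CTDSP2, CTDSPL, RPAP2, RPRD1A, RPRD1B and RPRD2. They were taken by gene name, with no threshold on a measured value, from count tables that list 61578 genes. All 9 were found and all 9 passed the filter on low counts.

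The CTD is a long tail of repeated heptads whose tyrosine, serine and threonine residues are phosphorylated and dephosphorylated in each round of transcription, and the pattern of marks decides which processing factors bind. Kinases of the transcription machinery add the marks. Phosphatases remove them, so that the polymerase can be used again. Because RPB1 is the substrate of these enzymes, lines in which a CTD residue cannot be phosphorylated are a setting in which the mRNA of the enzymes can be read.

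Poly(A) RNA was sequenced from 30 libraries in 15 groups of 2. Their labels name A549, a line from a human lung adenocarcinoma. The Mock group was untreated and labelled wild type. The degron line carries an RPB1 that is destroyed after addition of dTAGV-1. In 6 further lines the same degron is complemented with a doxycycline-induced RPB1, either WT or with a CTD in which tyrosine 1 (Y1F), serine 2 (S2A), threonine 4 (T4V), serine 5 (S5A) or serine 7 (S7A) is replaced. Untreated libraries of these 7 lines are labelled as untreated. Treated libraries of the 6 complemented lines received 2 µg/mL doxycycline for 24 h and then 100 nM dTAGV-1 for 12 h, and those of the degron line received 100 nM dTAGV-1 for 12 h without doxycycline, so the degron and WT lines also differ in doxycycline. The design sets the RNA of cells left with a replaced CTD against that of the same line before treatment. Nothing in the labels says that the 2 libraries of a group came from separate cultures, or whether a line is 1 clone, so p-values measure only the spread between these libraries.

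The labelled cell type did not hold for 28 of the 30 libraries. Of 14 genes typical of A549, the Mock libraries had summed levels of 27300 to 27466 TPM (length-scaled transcript abundance, made by the authors), with AKR1B10, an aldo-keto reductase, at 9731 TPM. The other 28 libraries had sums of 10.03 to 29.16 TPM, with CEACAM6 and TM4SF1, both defining A549 genes, at 0 in all 28. CDKN2A, CDKN2B and MTAP, which A549 cells have lost, summed to 0.09 to 0.1 TPM in Mock and to 120 to 217 TPM in the 28 others. A 9-gene neuronal and kidney-line list summed to 256 to 856 TPM in those 28, against 78.8 to 83.2 TPM in Mock. By the median over all 30 libraries, 7 of its genes lay above their Mock mean (IRS4 at 169 TPM against 0.019 TPM, GAL at 148 TPM against 6.90 TPM), and INA (1.36 TPM against 53.5 TPM) and CRMP1 (4.14 TPM against 12.2 TPM) lay below it. Immune, fibroblast and endothelial markers summed to at most 33.97, 22.56 and 3.73 TPM in any library, and the defining genes PTPRC, COL1A2 and DCN reached at most 0.043, 0.143 and 0.082 TPM. Comparisons with Mock are between libraries that differ in these markers. Some of the lists also moved with treatment within the lines. The neuronal and kidney-line sum was lower in the treated libraries of all 7 lines with no overlap, from 807 to 833 TPM untreated to 349 to 365 TPM treated in degron, from 840 to 856 TPM to 548 to 600 TPM in WT and from 661 to 704 TPM to 256 to 269 TPM in S5A. The immune sum was higher in the treated libraries of all 7, from 6.0 to 6.97 TPM to 22.6 to 26.1 TPM in degron and from 5.05 to 5.29 TPM to 11.3 to 12.0 TPM in WT, with CD14 the highest of its genes (at most 26.8 TPM in a library). The part of these markers in any result was not tested.

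Library totals were 10866089 to 17912802 counts, and the genes described here had from 131 counts (CTDSP1, a treated S5A library) to 5274 counts (RPRD1A) in a library. In bulk RNA, fewer cells of a type and less RNA per cell cannot be told apart.

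The 3 small CTD phosphatase genes share a feature that did not enter the choice: each carries a gene of the miR-26 family between its exons, on its own strand. MIR26B (chr2:218402646-218402722, +) lies inside CTDSP1, MIR26A1 (chr3:37969404-37969480, +) inside CTDSPL and MIR26A2 (chr12:57824609-57824692, −) inside CTDSP2, and in GENCODE 29 no exon of a host transcript overlaps the hairpins (0 of 11, 5 and 6 spanning transcripts). The mature 5p sequences are shown because they are the part of these genes that the family shares. They are from RefSeq (GRCh38), and capitals mark the seed, bases 2 to 8, which is the same in both.
hsa-miR-26a-5p: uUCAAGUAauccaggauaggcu
hsa-miR-26b-5p: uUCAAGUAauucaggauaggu
The first is the product of both MIR26A1 and MIR26A2, the second of MIR26B. Poly(A) libraries do not measure mature miRNAs, and MIR26B, MIR26A1 and MIR26A2 had 5, 2 and 63 counts over all 30 libraries.

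The genes differ in size and place. In GENCODE 29 (GRCh38), CTDSP1 (ENSG00000144579, chr2:218398256-218405941, +) spans 7.7 kb. CTDSPL (ENSG00000144677, chr3:37861960-37984469, +) spans 122.5 kb. CTDSP2 (ENSG00000175215, chr12:57819927-57846739, −), SSU72 (ENSG00000160075, chr1:1541673-1574869, −) and CTDP1 (ENSG00000060069, chr18:79679801-79756623, +) complete the phosphatases of the list, with RPAP2 (ENSG00000122484, chr1:92298965-92402056, +). RPRD1A (ENSG00000141425, chr18:35984387-36067576, −), RPRD1B (ENSG00000101413, chr20:38033546-38127780, +) and RPRD2 (ENSG00000163125, chr1:150363091-150476566, +) are the associated proteins. The first bases of RPAP2 overlap GLMN on the opposite strand, and the end of RPRD1B overlaps TGM2 on the opposite strand. Also on the opposite strand, AL645728.1 (1390 counts over all 30 libraries) overlaps SSU72 and AC083805.2 (140 counts) overlaps CTDSP2. Further opposite-strand genes over CTDSP1, CTDP1 and RPRD1B had at most 35 counts each. Whether strand was used in counting is not given in the sources used here, so reads from those overlaps cannot be told apart. Copies of SSU72 and RPAP2 (SSU72L5 and the like) had at most 4 counts in a library.

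Promoter windows of RefSeq (GRCh38.p14), 250 bases before to 50 after a start site, were held for 8 of the 9 genes. SSU72 and CTDSP1 are shown because both genes fell in several lines and the windows shown differ in a pair of simple elements. The CTDSP1 window was picked for its GC boxes, so that difference is partly built in. The GC box was searched as GGGCGG on both strands, with matches in capitals. It occurred in 45.0% of 35116 promoters of that length. SSU72 has 1 window, chr1:1574814-1575113 (−), with 40 CpG and no match. CTDSP1 has 7 windows, of which 5 hold a match, and the one with the most is chr2:218398492-218398791 (+), with 34 CpG.
SSU72: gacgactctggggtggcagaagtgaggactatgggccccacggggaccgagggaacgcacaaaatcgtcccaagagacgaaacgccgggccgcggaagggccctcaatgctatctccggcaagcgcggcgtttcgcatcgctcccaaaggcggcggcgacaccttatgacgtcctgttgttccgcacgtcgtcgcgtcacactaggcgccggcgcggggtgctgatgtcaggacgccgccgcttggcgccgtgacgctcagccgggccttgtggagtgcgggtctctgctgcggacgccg
CTDSP1: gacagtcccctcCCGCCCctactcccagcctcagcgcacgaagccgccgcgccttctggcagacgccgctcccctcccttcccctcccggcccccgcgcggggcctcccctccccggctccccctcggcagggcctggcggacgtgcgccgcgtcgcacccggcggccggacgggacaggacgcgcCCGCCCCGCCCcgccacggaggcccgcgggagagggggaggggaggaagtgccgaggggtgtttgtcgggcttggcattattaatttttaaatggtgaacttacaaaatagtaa
The core of the CRE, searched as TGACG on both strands and not capitalised, occurs 3 times in the SSU72 window and not in this CTDSP1 window, and in 24.6% of the promoters. Some other CTDSP1 windows hold it 1 time. Among genes called in no line with TMM, a CTDP1 window with 45 CpG holds it 3 times and no GC box, and the RPRD1A window holds it 2 times. The part of these elements in any change was not tested. Neither window holds the letters CACGTG (7.3% of promoters), TATAAA (11.5%), CCGGAAG (10.3%) or CCAAT (34.6%), or the palindromic NRF1 motif (1.2%), on either strand. Both windows hold more CpG than the median of all promoters, which is 14. The single windows of CTDSP2, RPAP2 and RPRD1B hold 1 GC box each, that of RPRD1A holds 2, and those of RPRD2 and CTDP1 hold none.

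Levels between genes were compared on the TPM scale, which divides by gene length. RPRD1A, CTDSP2 and SSU72 stood highest and RPAP2 lowest in most groups. RPRD1A ranked first by mean in 8 of 15 groups and CTDSP2 in the other 7. Libraries of RPRD1A and CTDSP2 overlapped in untreated degron, S2A and T4V and in treated S2A and WT. Those of CTDSP2 and SSU72 overlapped in untreated S7A, so the first rank is not settled in these groups. RPAP2, an atypical phosphatase that removes the serine 5 mark early in transcription, ranked 8 or 9 in every group, from 5.13 TPM ± 0.22 in Mock to 20.6 TPM ± 0.19 in treated S5A (SD, n = 2). The widest span belonged to CTDSP1, from 9.50 TPM ± 0.25 in treated S5A to 68.1 TPM ± 3.00 in Mock, a ratio of 7.17. Its rank among the 9 went from 2 in Mock to 9 in treated S5A. The group means of CTDP1 spanned less than those of any other member, from 17.4 to 29.1 TPM over the group means. In treated WT, the libraries of RPRD1A overlapped those of CTDSP2, those of RPRD1B overlapped RPRD2 and those of RPRD2 overlapped CTDSP1, so these neighbours in the order did not differ beyond their spread there.

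**Figure D1:**
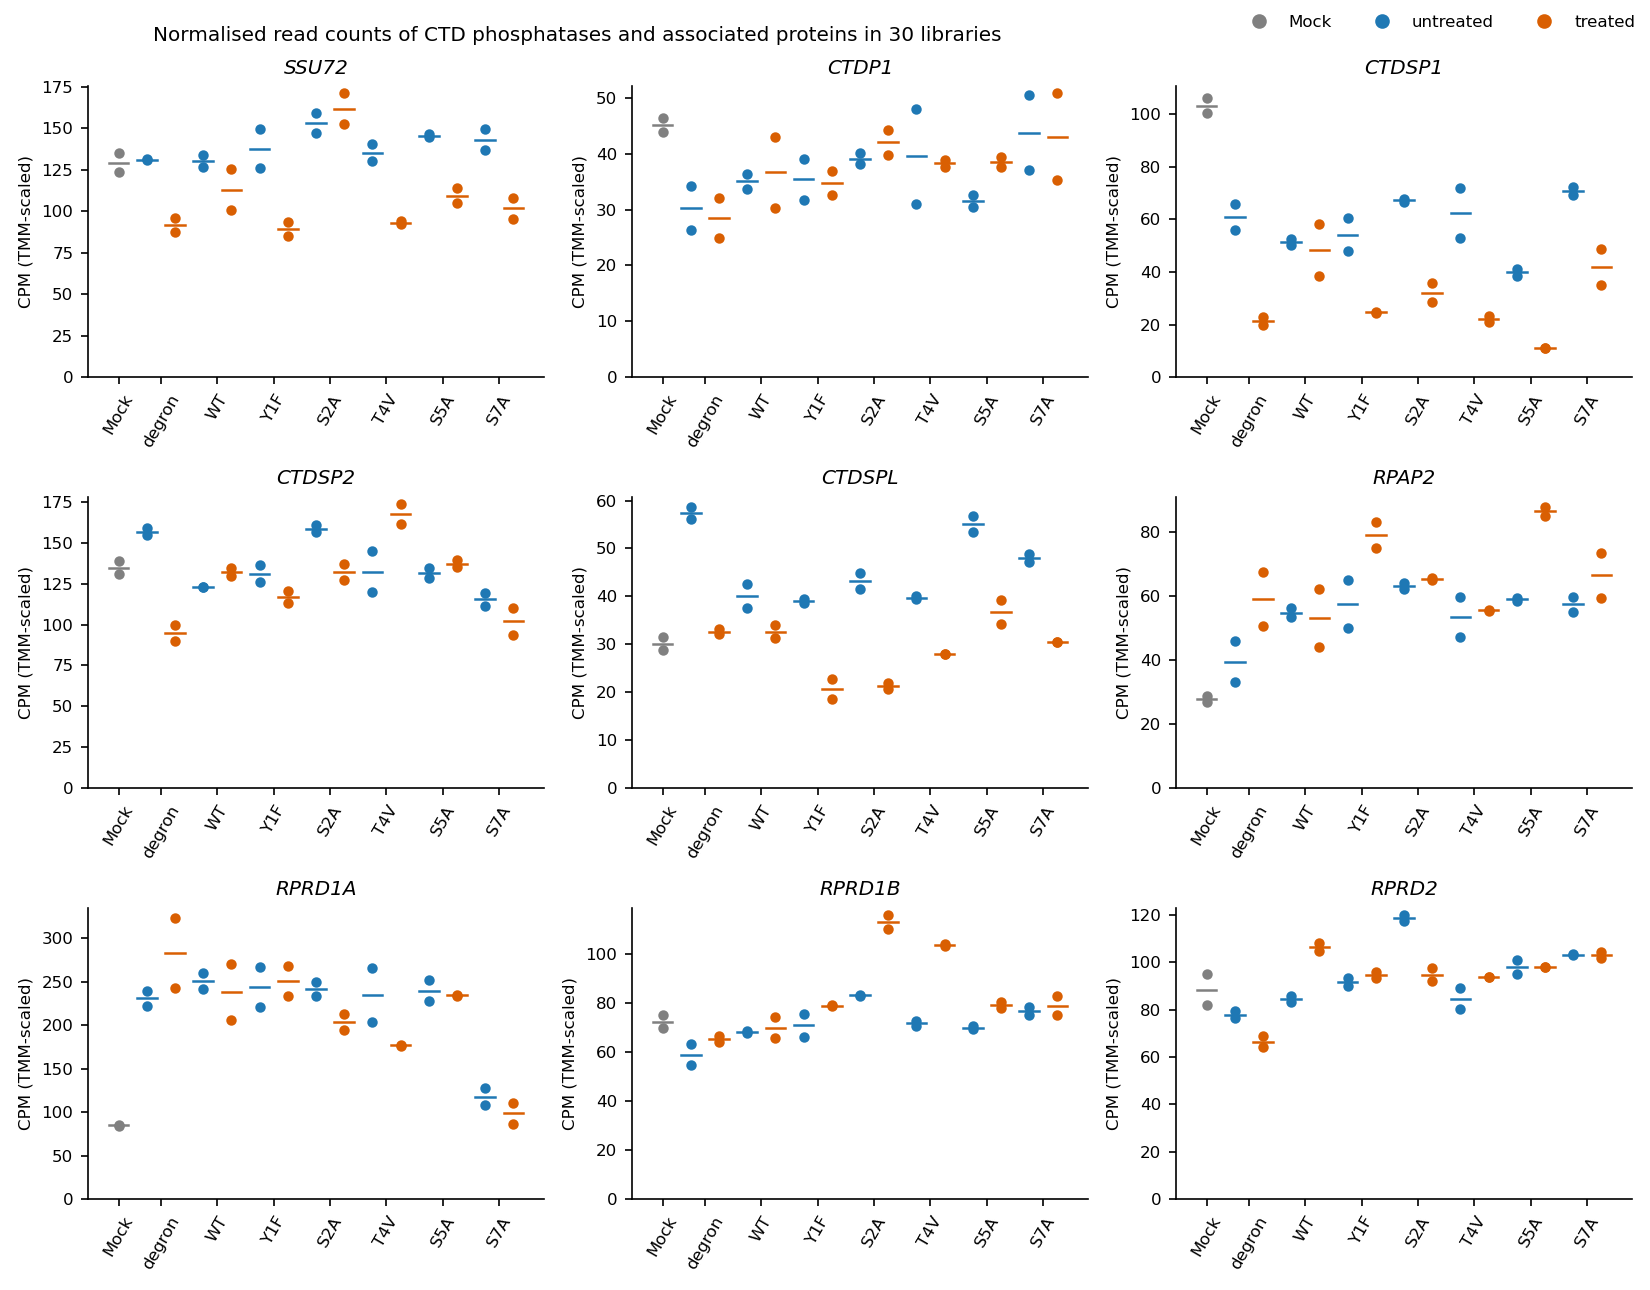
Normalised read counts (CPM, library sizes scaled with TMM, linear axis from 0) of the 9 genes in all 30 libraries. Points are libraries (grey Mock, blue untreated, orange treated) and bars the mean of 2. CTDSP1 was at 11.0 and 11.2 CPM in treated S5A against 41.2 and 38.6 CPM untreated, and RPRD1A in S7A lay below every other line but Mock.

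Changes were tested on read counts given as CPM (counts scaled to the size of the library) on TMM-scaled library sizes, with edgeR's quasi-likelihood test and Benjamini-Hochberg adjustment over 19982 genes. An adjusted p under 0.05 was a call, fold changes are log2 of treated over untreated, and errors are standard errors (SE) from the spread shared by all 30 libraries. The spread was unequal between groups. Chi-square per degree of freedom between the 2 libraries, larger for wider spread, was 1.26 (untreated S2A) to 24.72 (untreated T4V), with 22.8 in treated WT. A shared spread can therefore be too small for some groups, treated WT among them, and too large for others. TMM sets the bulk of genes level, so the fold changes are relative to other genes. The authors' own factors, solved from their deposited base means, put the treated totals at 56.45% (degron), 84.29% (WT), 51.19% (Y1F), 71.53% (S2A), 75.43% (T4V), 49.71% (S5A) and 56.12% (S7A) of the untreated ones. They moved the median log2 change of all tested genes to −0.79, −0.19, −0.82, −0.52, −0.41, −0.92 and −0.81 in that order, and scaling by 13 mitochondrial mRNAs moved it to −0.42, −0.17, −0.30, −0.50, −0.54, −0.70 and −0.38. Directions that depend on this choice are given with both values.

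POLR2A, which encodes RPB1, was read first. In the WT line it was at 302 and 290 CPM untreated and at 518 and 1020 CPM treated. With TMM it was higher in treated libraries of 5 lines, by 0.97 ± 0.26 (Y1F) to 1.46 ± 0.27 (S7A), with adjusted p of 0.00014 to 0.0052. In the degron line (0.55 ± 0.26, adjusted p = 0.092) and T4V (0.56 ± 0.26, adjusted p = 0.11) it did not pass. The size depended on the scaling. In the authors' deposited DESeq2 results POLR2A was at −0.31 in degron, 0.09 in Y1F and 0.12 in T4V (adjusted p of 0.31, 0.65 and 0.68). It was at 0.59 in S2A, 0.47 in S5A and 0.63 in S7A there (adjusted p of 1.7e-06 to 0.0064), and at 1.23 in WT (adjusted p = 0.637). The counts do not separate endogenous from complementing mRNA, and dTAGV-1 acts on the protein, so this checks neither depletion nor the size of replacement.

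In the degron line, 1 of the 9 genes was called higher and 5 lower, where 23.1% and 21.4% of all tested genes were called in those directions. In the WT line 1 was higher and 0 lower (background 3.09% and 1.84%). In Y1F 1 was higher and 3 lower (23.1% and 21%), in S2A 1 and 4 (17% and 18.2%), in T4V 2 and 3 (14.8% and 14%), in S5A 1 and 3 (25.5% and 24.2%), and in S7A 0 and 3 (17.8% and 17.1%). The neuronal and immune marker sums given above differed between the same treated and untreated libraries, and their part in these counts was not tested. The median log2 change of the 9 was −0.23 in the degron line and −0.25 in S2A, where the median of all tested genes was 0.05 and 0.00. In WT, Y1F, T4V, S5A and S7A the medians of the 9 were −0.045, −0.03, −0.05, −0.004 and −0.18, beside 0.03, 0.03, 0.03, 0.02 and 0.00 for all genes.

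**Figure D2:**
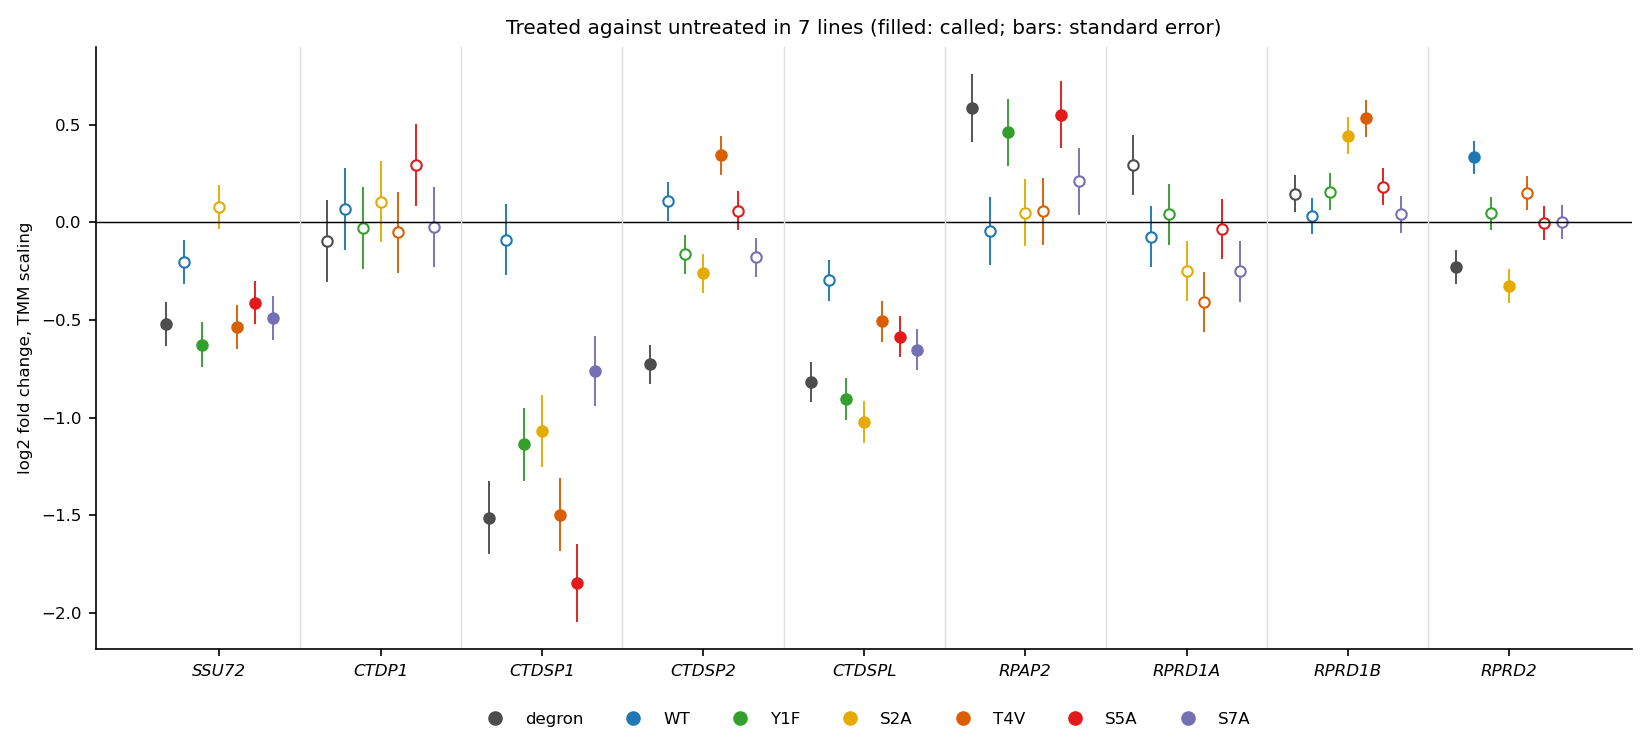
Log2 fold change (TMM scaling) of each gene, treated against untreated, in the 7 lines. Filled points were called, open points were not, and bars are SE. CTDSP1 and CTDSPL lie below 0 and are filled in every line but WT. RPAP2 and RPRD1B lie above 0 where filled, and with the authors' factors no member was called higher.

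CTDSP1 had the lowest log2 change of the 9 genes in each line but WT. It encodes SCP1, a small phosphatase that acts on the serine 5 mark and, bound by the repressor REST, restrains neuronal genes in other cells. It was at 65.8 and 56.2 CPM in the untreated and 19.7 and 23.0 CPM in the treated degron libraries, a change of −1.51 ± 0.19 (adjusted p = 1.3e-06, 2.85-fold lower). In S5A it went from 41.2 and 38.6 CPM to 11.0 and 11.2 CPM, or −1.85 ± 0.20 (adjusted p = 1.8e-07). In T4V it went from 72.0 and 52.8 CPM to 23.4 and 20.9 CPM, or −1.50 ± 0.19 (adjusted p = 6.2e-06). In these 3 lines the treated libraries lay between 11.0 and 23.4 CPM and none overlapped an untreated one.

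CTDSP1 also fell in the other 3 mutants. Y1F had 60.6 and 47.9 CPM untreated and 24.8 and 24.5 CPM treated (−1.14 ± 0.19, adjusted p = 4.7e-05). S2A had 66.6 and 67.9 CPM untreated and 35.6 and 28.4 CPM treated (−1.07 ± 0.18, adjusted p = 0.00012). S7A had 69.2 and 72.4 CPM untreated and 35.0 and 48.6 CPM treated (−0.76 ± 0.18, adjusted p = 0.0025). The treated libraries of S7A lay furthest apart of the 3. In WT, CTDSP1 was at 52.6 and 50.3 CPM untreated and at 38.3 and 58.3 CPM treated, which overlap (−0.09 ± 0.18, adjusted p = 0.85). CTDSP1 fell in 6 of 7 lines and kept its direction and call in each of these 6 under every scaling, filter, test and left-out library tried.

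CTDSPL (SCP3), another of the small phosphatases and a candidate tumour suppressor on the short arm of chromosome 3, fell in the same 6 lines. In S2A it went from 41.6 and 45.0 CPM to 21.9 and 20.8 CPM (−1.02 ± 0.11, adjusted p = 4.1e-07). In Y1F it went from 38.5 and 39.6 CPM to 22.8 and 18.7 CPM (−0.90 ± 0.11, adjusted p = 9.9e-07). In the degron line it went from 58.7 and 56.2 CPM to 32.1 and 33.1 CPM (−0.82 ± 0.10, adjusted p = 2e-06). No treated library overlapped an untreated one in any of these 3 lines. S7A (48.8 and 47.1 CPM to 30.5 and 30.5 CPM), S5A (56.8 and 53.5 CPM to 34.2 and 39.3 CPM) and T4V (39.5 and 40.0 CPM to 28.0 and 27.9 CPM) gave −0.65 ± 0.10, −0.59 ± 0.10 and −0.51 ± 0.11, with adjusted p of 6.8e-05, 8.6e-05 and 0.0012. The T4V call was lost with that line's own 4 libraries alone (adjusted p = 0.076). In WT the libraries were at 37.7 and 42.6 CPM untreated and 34.1 and 31.2 CPM treated, and did not overlap either. The change of −0.30 ± 0.10 there did not pass (adjusted p = 0.11), and it did with mitochondrial scaling (−0.52, adjusted p = 0.021). The lowest estimate of CTDSP1 was in S5A and that of CTDSPL in S2A, and whether the order of lines differs between the genes was not tested.

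CTDSP2 (SCP2), the third enzyme of the family, was called in 3 lines and not in 1 direction. It fell in the degron line, from 159 and 155 CPM to 89.7 and 99.8 CPM (−0.73 ± 0.10, adjusted p = 5.4e-06), and this held under every alternative tried. In S2A it went from 161 and 157 CPM to 137 and 127 CPM (−0.26 ± 0.10, adjusted p = 0.045). That call was lost without untreated replicate 1 (−0.24, adjusted p = 0.17), untreated replicate 2 (−0.28, adjusted p = 0.11) or treated replicate 2 (−0.23, adjusted p = 0.16). It was also lost with DESeq2's size factors (−0.21, adjusted p = 0.1) or test (−0.21, adjusted p = 0.084), with no filter (−0.26, adjusted p = 0.18) and among genes of at least 5 CPM (−0.14, adjusted p = 0.27). In T4V it went the other way, from 145 and 120 CPM to 162 and 174 CPM (0.34 ± 0.10, adjusted p = 0.013), which turned to −0.11 (adjusted p = 0.66) with the authors' factors and to −0.25 (adjusted p = 0.17) with mitochondrial scaling. Without T4V untreated replicate 2 it was 0.21 (adjusted p = 0.16) and without treated replicate 2 it was 0.25 (adjusted p = 0.15), and no filter (0.28, adjusted p = 0.15) or own libraries alone (0.34, adjusted p = 0.18) ended the call as well. In WT, Y1F, S5A and S7A the changes were 0.11, −0.16, 0.06 and −0.18, none of them past the test, and with mitochondrial scaling Y1F, S5A and S7A were called lower (−0.52, −0.68 and −0.57, adjusted p of 0.00033 to 0.0056).

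SSU72, a phosphatase of the cleavage and polyadenylation machinery that removes the serine 5 and serine 7 marks, fell in 5 of 7 lines. Its libraries were at 149 and 126 CPM untreated and 85.2 and 93.4 CPM treated in Y1F (−0.63 ± 0.11, adjusted p = 0.00014). They were at 140 and 130 CPM untreated and 94.1 and 92.2 CPM treated in T4V (−0.54 ± 0.11, adjusted p = 0.0012), and at 131 and 131 CPM untreated and 87.3 and 95.5 CPM treated in the degron line (−0.52 ± 0.11, adjusted p = 0.00076). None of these groups overlapped. S7A (150 and 137 CPM to 95.4 and 108 CPM) and S5A (146 and 145 CPM to 114 and 105 CPM) gave −0.49 ± 0.11 (adjusted p = 0.0018) and −0.41 ± 0.11 (adjusted p = 0.0045). The S5A call was lost among genes of at least 5 CPM (−0.24, adjusted p = 0.066), and the S7A call with that line's own 4 libraries (−0.45, adjusted p = 0.08). S2A stood apart, with 159 and 147 CPM untreated and 171 and 152 CPM treated (0.08 ± 0.11, adjusted p = 0.63), which became −0.44 (adjusted p = 0.044) with the authors' factors and −0.42 (adjusted p = 0.022) with mitochondrial scaling. In WT the change was −0.20 ± 0.11 (adjusted p = 0.34), from a mean of 130 CPM untreated to 113 CPM treated. The WT groups did not overlap either, so a lack of overlap alone does not set WT apart.

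CTDP1 encodes FCP1, the essential phosphatase that recycles the polymerase by removing the serine 2 mark. It was called in no line. Its changes ran from −0.09 (degron) to 0.29 (S5A), with SE of 0.21 and adjusted p of 0.26 to 0.95. The spread within groups was wide, as in T4V (48.1 and 31.1 CPM untreated, 39.0 and 37.6 CPM treated) and S7A (37.1 and 50.5 CPM untreated, 35.3 and 50.9 CPM treated). In S5A the groups were apart, at 30.5 and 32.6 CPM untreated and 39.5 and 37.7 CPM treated, and the 4 libraries of that line alone gave a call (0.33, adjusted p = 0.00011). The S5A pairs were among the closest (chi-square per degree of freedom 1.86 untreated and 1.38 treated), and that p-value rests on their spread alone. CTDP1 was lower in 4 lines with the authors' factors, by −0.95 in the degron line (adjusted p = 0.00021), where the median gene was at −0.79. Mitochondrial scaling called it lower in T4V only (−0.65, adjusted p = 0.031), where the median gene was at −0.54.

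With TMM, RPAP2 was called higher in 3 lines and lower in none. In S5A it went from 58.5 and 59.4 CPM to 87.8 and 84.9 CPM (0.55 ± 0.17, adjusted p = 0.011). In the degron line it went from 33.2 and 45.8 CPM to 67.5 and 50.6 CPM (0.58 ± 0.17, adjusted p = 0.0097) and in Y1F from 49.9 and 65.1 CPM to 83.1 and 74.9 CPM (0.46 ± 0.17, adjusted p = 0.035). The groups did not overlap in these 3 lines. In WT (−0.05), S2A (0.05), T4V (0.06) and S7A (0.21) the adjusted p was 0.37 to 0.94. Mitochondrial scaling called RPAP2 lower in S2A (−0.45, adjusted p = 0.024) and T4V (−0.525, adjusted p = 0.01), and the authors' factors called it lower in S7A (−0.60, adjusted p = 0.015). None of the 3 rises was stable: with the authors' factors the values were −0.41 (S5A, adjusted p = 0.092), −0.28 (degron, adjusted p = 0.26) and −0.42 (Y1F, adjusted p = 0.085), and with mitochondrial scaling −0.19 (adjusted p = 0.3), 0.095 (adjusted p = 0.65) and 0.11 (adjusted p = 0.6) in that order. The degron call was lost without untreated replicate 1 (0.37, adjusted p = 0.17) or treated replicate 1 (0.29, adjusted p = 0.28). The S5A call was lost without untreated replicate 1 (0.54, adjusted p = 0.06), treated replicate 1 (0.47, adjusted p = 0.098) or treated replicate 2 (0.53, adjusted p = 0.068). The Y1F call was lost without untreated replicate 1 (0.28, adjusted p = 0.31), treated replicate 1 (0.38, adjusted p = 0.18) or treated replicate 2 (0.48, adjusted p = 0.098).

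The RPRD proteins bind the phosphorylated CTD through a CTD-interaction domain, and RPRD1A and RPRD1B are known to bring RPAP2 to it. RPRD1A was called in no line. Its changes ran from −0.41 ± 0.15 in T4V (204 and 266 CPM untreated, 178 and 176 CPM treated, adjusted p = 0.051) to 0.295 ± 0.15 in the degron line (222 and 240 CPM untreated, 323 and 243 CPM treated, adjusted p = 0.13). The T4V groups did not overlap, and the call appeared with no filter (−0.47, adjusted p = 0.0016), with the DESeq2 test (−0.42, adjusted p = 0.047) or without untreated replicate 1 (−0.59, adjusted p = 0.02). RPRD1A was lower in 6 lines with the authors' factors, from −0.56 in the degron line (adjusted p = 0.017) to −1.06 in S7A (adjusted p = 3.5e-05), and with mitochondrial scaling in S2A, T4V, S5A and S7A (−0.75, −0.99, −0.78 and −0.65, adjusted p of 1.1e-05 to 0.0011). In S2A the line's own libraries also gave a call (−0.19, adjusted p = 0.014).

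RPRD1B (also named CREPT) rose in 2 lines. In T4V it went from 70.6 and 72.8 CPM to 104 and 103 CPM (0.53 ± 0.09, adjusted p = 0.00025) and in S2A from 83.4 and 82.7 CPM to 110 and 116 CPM (0.44 ± 0.09, adjusted p = 0.00088). Neither pair of groups overlapped, and both calls held without each library in turn. The rises were relative to other genes: with the authors' factors they were 0.07 in T4V (adjusted p = 0.81) and −0.07 in S2A (adjusted p = 0.78), and with mitochondrial scaling −0.05 in both (adjusted p = 0.71 in both), where the median gene was at −0.41 or lower. The T4V call was also lost with that line's own libraries (adjusted p = 0.051). In the other 5 lines the changes were 0.03 to 0.18 and did not pass. In S5A (0.18, adjusted p = 0.12) the call depended on the processing. It passed as a rise with DESeq2's size factors (0.25, adjusted p = 0.039), DESeq2's test (0.25, adjusted p = 0.023), genes of at least 5 CPM (0.35, adjusted p = 0.0018) or own libraries (0.21, adjusted p = 0.00075), and as a fall with mitochondrial scaling (−0.56, adjusted p = 0.00012) and again with the authors' own factors (−0.77, adjusted p = 0.00043). Y1F (0.16, adjusted p = 0.19) passed as a rise among genes of at least 5 CPM (0.29, adjusted p = 0.0079) and as a fall with the authors' factors (−0.72, adjusted p = 0.001). In degron and S7A, mitochondrial scaling gave −0.34 (adjusted p = 0.014) and −0.35 (adjusted p = 0.011), and the factors of the authors −0.715 (adjusted p = 0.0012) and −0.77 (adjusted p = 0.00052).

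RPRD2, a larger relative, was the only member called in the WT line, from 85.7 and 83.3 CPM to 108 and 105 CPM (0.33 ± 0.09, adjusted p = 0.027). This call was lost without any 1 of the 4 WT libraries: without untreated replicate 1 (0.35, adjusted p = 0.13) or 2 (0.31, adjusted p = 0.19), and without treated replicate 1 (0.31, adjusted p = 0.079) or 2 (0.35, adjusted p = 0.083). It was 0.095 with the authors' factors (adjusted p = 0.8) and 0.11 with mitochondrial scaling (adjusted p = 0.58), and was also lost with no filter (0.29, adjusted p = 0.37) or own libraries (0.33, adjusted p = 0.54). It fell in S2A, from 120 and 118 CPM to 97.5 and 92.0 CPM (−0.33 ± 0.09, adjusted p = 0.0054), and in the degron line, from 76.5 and 79.4 CPM to 68.8 and 64.0 CPM (−0.23 ± 0.09, adjusted p = 0.036). The groups did not overlap in these 3 lines. The S2A call was lost without treated replicate 2 (−0.31, adjusted p = 0.058) or with no filter (−0.33, adjusted p = 0.081). The degron call was lost without untreated replicate 1 (−0.26, adjusted p = 0.073), untreated replicate 2 (−0.20, adjusted p = 0.15) or treated replicate 2 (−0.21, adjusted p = 0.15), with no filter (−0.27, adjusted p = 0.16), among genes of at least 5 CPM (−0.18, adjusted p = 0.055) and with own libraries (−0.23, adjusted p = 0.31). Values in Y1F, T4V, S5A and S7A were 0.04, 0.15, 0.00 and 0.00, and with mitochondrial scaling all 4 were called lower (−0.31, −0.44, −0.75 and −0.39, adjusted p of 6.6e-06 to 0.031).

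With the authors' factors in the same test, no member was called higher in any line. Members called lower were 8 in the degron line (background 60.8% lower, 6.93% higher), 0 in WT (1.9% and 1.37%), 8 in Y1F (60% and 8.06%), 6 in S2A (43.9% and 6.88%), 4 in T4V (33.7% and 4.44%), 8 in S5A (62.5% and 8.75%) and 9 in S7A (61.4% and 6.49%). The share of all tested genes called lower was also larger than with TMM in every line. Whether the 9 genes differ from that share was not tested. Against the median gene at −0.92, CTDSP1 in S5A was at −2.80 (adjusted p = 3e-14), and CTDSPL in Y1F was at −1.78 (adjusted p = 3.8e-10) against −0.82. In the authors' deposited table the adjusted p was 0.999 in WT for all 9 genes, with 0.104 (CTDSPL) the lowest unadjusted p, and POLR2A was at 1.23 there (adjusted p = 0.637). In the authors' deposited table CTDSP1 was at −2.37 in the degron line (adjusted p = 3.79e-26) and RPRD1A at −0.99 in S5A (adjusted p = 1.13e-51). The S5A pairs were among the closest (chi-square per degree of freedom 1.86 untreated and 1.38 treated), so p-values of different lines are not on an equal footing.

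**Figure D3:**
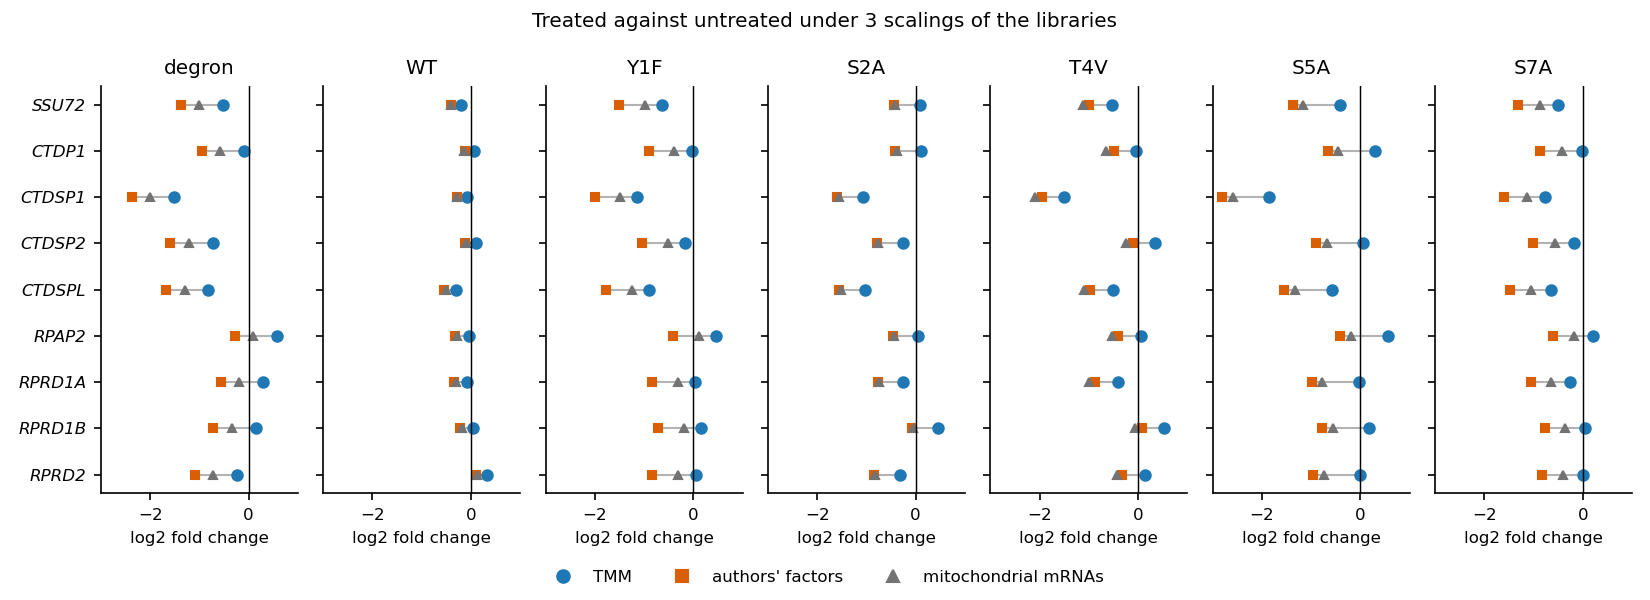
Log2 fold change of the 9 genes in each line with TMM (circles), the authors' factors (squares) and mitochondrial mRNAs (triangles). Every square lies left of its circle. CTDSP1, CTDSPL and SSU72 lie at or below 0 under all 3 scalings in every line except SSU72 in S2A with TMM (0.08), whereas RPAP2 and RPRD1B cross 0 in several lines.

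Whether lines differed was tested on the difference of their log2 changes. Between WT and degron, 4 of the 9 genes had a higher change in WT and 0 a lower one (background 8.24% and 3.79%). They were CTDSP1 (1.42 ± 0.26, adjusted p = 0.00076), CTDSP2 (0.83 ± 0.14, adjusted p = 0.00041), RPRD2 (0.56 ± 0.12, adjusted p = 0.0039) and CTDSPL (0.52 ± 0.15, adjusted p = 0.024). The CTDSPL difference was lost without degron untreated replicate 1 (0.49, adjusted p = 0.085), degron treated replicate 1 (0.53, adjusted p = 0.058), WT untreated replicate 1 (0.43, adjusted p = 0.12) or WT treated replicate 1 (0.46, adjusted p = 0.064). With no filter CTDSPL (0.52, adjusted p = 0.2) and RPRD2 (0.56, adjusted p = 0.059) were lost, and with the 8 libraries of both lines alone as well (0.50, adjusted p = 0.2 and 0.54, adjusted p = 0.13). With the authors' factors 6 genes were higher (background 30.2%), SSU72 (0.97, adjusted p = 0.0048) and CTDP1 (0.83, adjusted p = 0.036) being the further ones. RPAP2 (−0.63, adjusted p = 0.1) was called lower with no filter (−0.63, adjusted p = 0.045), without degron untreated replicate 2 (−0.88, adjusted p = 0.04) or without WT treated replicate 1 (−0.90, adjusted p = 0.021).

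CTDSP1 also separated 4 of the 5 mutants from WT. Its change was lower by −1.76 ± 0.27 in S5A (adjusted p = 0.00011), which held under every alternative, and by −1.41 ± 0.26 in T4V (adjusted p = 0.0051), which was lost with the 8 libraries of both lines alone (adjusted p = 0.27). In Y1F the difference was −1.05 ± 0.26 (adjusted p = 0.013) and in S2A −0.98 ± 0.26 (adjusted p = 0.022). The Y1F difference was lost without WT untreated replicate 2 (−1.01, adjusted p = 0.052), WT treated replicate 2 (−0.71, adjusted p = 0.1) or Y1F untreated replicate 1 (−0.87, adjusted p = 0.078), and with both lines' libraries alone (−1.04, adjusted p = 0.086). The S2A difference was lost without either WT untreated library (−1.01, adjusted p = 0.063; −0.95, adjusted p = 0.082), WT treated replicate 2 (−0.64, adjusted p = 0.15), either S2A untreated library (−0.99, adjusted p = 0.064; −0.97, adjusted p = 0.07) or S2A treated replicate 2 (−0.81, adjusted p = 0.11), and with both lines' libraries alone (−0.95, adjusted p = 0.083). In S7A it was −0.67 ± 0.25 (adjusted p = 0.22).

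The other called differences were few. In Y1F, 0 of the 9 had a higher and 2 a lower change than WT (background 3.42% and 6.31%), and CTDSPL was the other (−0.61 ± 0.15, adjusted p = 0.013). It was lost without WT untreated replicate 1 (−0.52, adjusted p = 0.075) or Y1F treated replicate 2 (−0.50, adjusted p = 0.07), with no filter (−0.60, adjusted p = 0.12) and with both lines' libraries alone (−0.60, adjusted p = 0.14). In S2A, 0 were higher and 3 lower (2.87% and 4.66%), with CTDSPL at −0.72 ± 0.15 (adjusted p = 0.0048) and RPRD2 at −0.66 ± 0.12 (adjusted p = 0.0021). The CTDSPL call in S2A was lost with no filter (−0.685, adjusted p = 0.067) or both lines' libraries alone (−0.70, adjusted p = 0.066). In T4V, 1 was higher and 1 lower (1.36% and 2.35%), and the higher one was RPRD1B (0.50 ± 0.13, adjusted p = 0.04). RPRD1B was lost without either WT untreated library (0.49 and 0.51, adjusted p = 0.12 in both), WT treated replicate 2 (0.41, adjusted p = 0.18), T4V untreated replicate 1 (0.48, adjusted p = 0.14) or either T4V treated library (0.49, adjusted p = 0.17; 0.50, adjusted p = 0.14). It was 0.14 with mitochondrial scaling (adjusted p = 0.62) and 0.29 with the authors' factors (adjusted p = 0.67), and was lost with no filter (0.485, adjusted p = 0.23), the replicate block (0.50, adjusted p = 0.052) and both lines' libraries alone (0.51, adjusted p = 0.35). In S5A, 0 were higher and 1 lower (6.4% and 11.7%), and in S7A 0 were called either way (0.325% and 0.495%). The lowest unadjusted edgeR p in S7A were 0.013 (RPRD2), 0.015 (CTDSP1) and 0.026 (CTDSPL). After adjustment they were 0.2, 0.22 and 0.28, so none passed, and DESeq2 called 0 after adjustment. With TMM, SSU72, CTDP1, CTDSP2, RPAP2 and RPRD1A were called in no mutant against WT, so on that scale their calls in single lines are not shown to differ from WT. These comparisons share the 4 WT libraries.

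That depended on the scaling. The authors' factors lower the treated mutants more than WT, and with them no member was called higher. Lower were 6 in Y1F (background 34.2% lower, 0.896% higher), 5 in S5A (42.2% and 1.41%), 5 in S7A (21.5% and 0.345%), 3 in S2A (6.75% and 0.696%) and 1 in T4V (2.88% and 0.0601%). SSU72 was then lower than in WT in Y1F (−1.09, adjusted p = 0.0018), S5A (−0.96, adjusted p = 0.0035) and S7A (−0.91, adjusted p = 0.018). CTDSP2 was lower in the same 3 lines (−0.92, −0.77 and −0.89, adjusted p of 0.0044 to 0.016), and so was RPRD2 (−0.93, −1.05 and −0.92, adjusted p of 0.0013 to 0.017). CTDSPL was lower in S5A (−0.99, adjusted p = 0.0038) and S7A (−0.93, adjusted p = 0.021) as well, CTDSP1 in S7A (−1.33, adjusted p = 0.0058) and CTDP1 in Y1F (−0.78, adjusted p = 0.044). RPAP2 and RPRD1A were called in no mutant with these factors. Mitochondrial scaling called 5 members lower in S5A (background 34.8% lower, 1.88% higher), 4 in S2A (10.2% and 0.991%), 4 in T4V (10.6% and 0.13%), 2 in Y1F (6.14% and 1.46%) and 0 in S7A (0.976% and 0.135%), and none higher. The lower ones included RPRD1A in T4V (−0.69, adjusted p = 0.037). Apart from these scalings, RPRD1B in S2A (0.41, adjusted p = 0.062) was called higher than in WT among genes of at least 5 CPM (0.49, adjusted p = 0.0096), with DESeq2's size factors (0.47, adjusted p = 0.04) or test (0.47, adjusted p = 0.0069) and without WT treated replicate 1 (0.50, adjusted p = 0.033). Without WT treated replicate 1, RPAP2 was called higher in Y1F (0.775, adjusted p = 0.044) and S5A (0.86, adjusted p = 0.017) and SSU72 lower in Y1F (−0.57, adjusted p = 0.022), and RPAP2 in S5A also passed among genes of at least 5 CPM (0.72, adjusted p = 0.039).

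**Figure D4:**
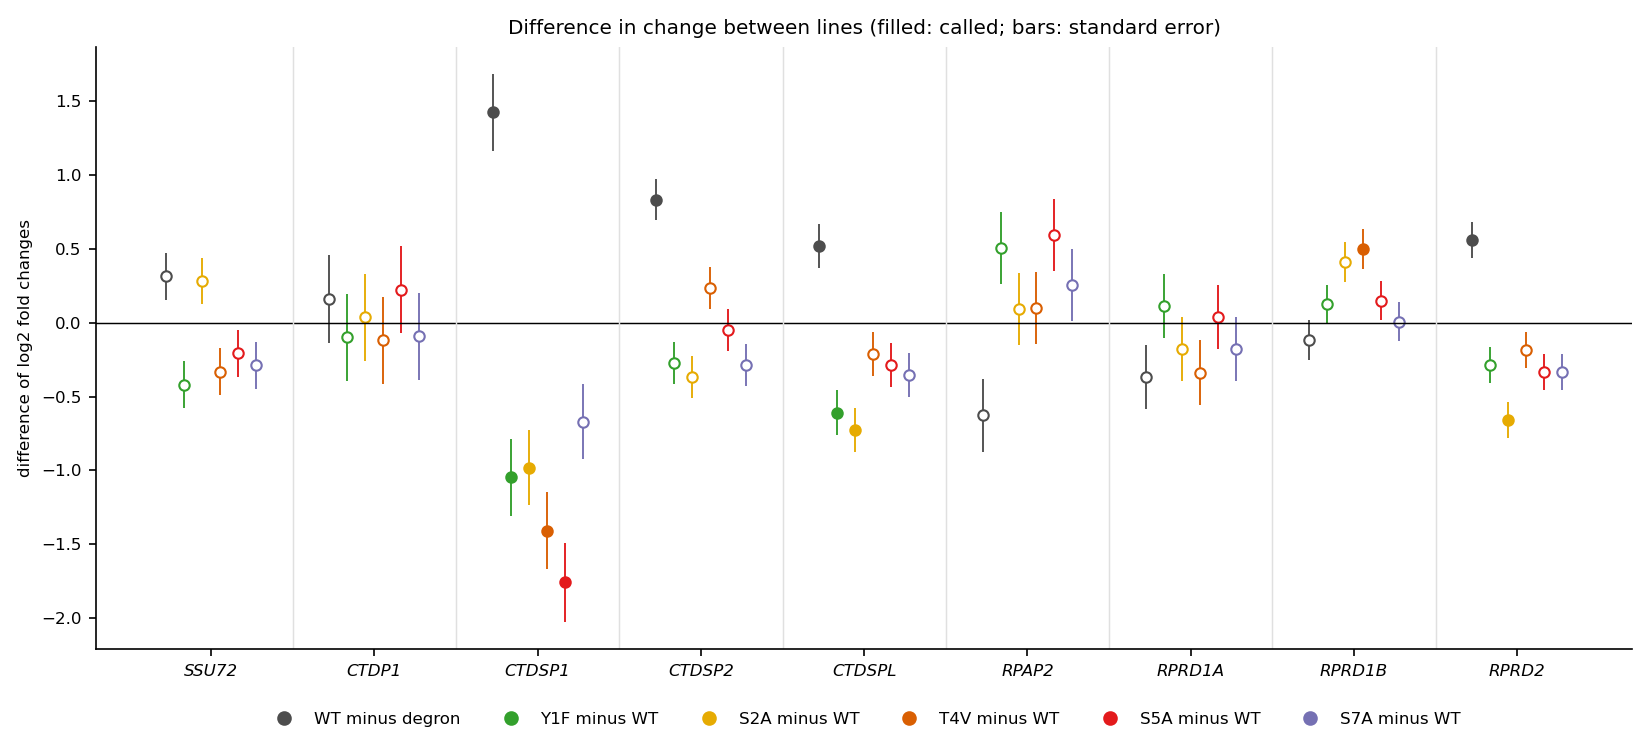
Difference in log2 change between lines (TMM scaling), WT minus degron and each mutant minus WT. Filled points were called and bars are SE. CTDSP1 is filled in WT minus degron (1.42) and in Y1F, S2A, T4V and S5A minus WT (−1.76 to −0.98), and no point of S7A is filled.

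The lines also differed before treatment. Against the untreated degron line, RPRD1A was at 127 and 108 CPM in S7A and at 222 and 240 CPM in degron (−0.97 ± 0.16, adjusted p = 0.00015). In the other 5 complemented lines its untreated libraries lay between 204 and 267 CPM, with differences of 0.025 to 0.12. The lower RPRD1A of S7A held under every alternative tried, and both treated S7A libraries (111 and 86.8 CPM) were low as well. In all, 5 of the 9 genes differed in untreated S7A (18.7% of tested genes), the others being CTDSP2 (−0.44, adjusted p = 0.0033), RPRD2 (0.405, adjusted p = 0.0021), RPRD1B (0.38, adjusted p = 0.0066) and RPAP2 (0.54, adjusted p = 0.033). CTDSP2 lost its call with mitochondrial scaling (−0.20, adjusted p = 0.34). RPRD1B lost its call without degron untreated replicate 1 (0.28, adjusted p = 0.13) or S7A untreated replicate 1 (0.35, adjusted p = 0.06), and with no filter (0.375, adjusted p = 0.078).

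CTDSPL was lower than in the degron line in 4 of 6 complemented lines before treatment: Y1F (−0.56, adjusted p = 0.0014), T4V (−0.53, adjusted p = 0.0015), WT (−0.52, adjusted p = 0.0026) and S2A (−0.41, adjusted p = 0.0035). The WT call was lost without WT untreated replicate 1 (−0.43, adjusted p = 0.064) and the S2A call without S2A untreated replicate 1 (−0.35, adjusted p = 0.051). With mitochondrial scaling the WT (−0.37, adjusted p = 0.087), S2A (−0.32, adjusted p = 0.079) and T4V (−0.34, adjusted p = 0.095) calls were lost, and T4V also with both lines' libraries alone (−0.53, adjusted p = 0.18). RPAP2 was higher in S2A (0.68, adjusted p = 0.0041), S5A (0.58, adjusted p = 0.031), Y1F (0.54, adjusted p = 0.049) and S7A. Each of these 4 calls was lost without degron untreated replicate 1, whose 33.2 CPM lay below the 45.8 CPM of replicate 2: the values were 0.46 (adjusted p = 0.11), 0.36 (adjusted p = 0.37), 0.33 (adjusted p = 0.46) and 0.325 (adjusted p = 0.36). RPAP2 also lost its call without either S5A library (0.59 and 0.57, adjusted p = 0.13 in both), Y1F replicate 2 (0.34, adjusted p = 0.44) or either S7A library (0.48, adjusted p = 0.16; 0.60, adjusted p = 0.075). In Y1F it was lost as well with DESeq2's size factors (0.53, adjusted p = 0.057), among genes of at least 5 CPM (0.52, adjusted p = 0.053), with the replicate block (0.54, adjusted p = 0.059) and with both lines' libraries alone (0.54, adjusted p = 0.073). Members called were 2 in WT (10.2% of tested genes), 2 in Y1F (11%), 4 in S2A (36.3%), 1 in T4V (13.3%) and 3 in S5A (12.7%). Besides those named, these were CTDSP2 in WT (−0.35, adjusted p = 0.026), which was lost without any 1 of the 4 libraries compared (−0.37 to −0.33), with no filter (adjusted p = 0.1) and with mitochondrial scaling (−0.20, adjusted p = 0.42), and, in S5A, RPRD2 (0.33, adjusted p = 0.014) and CTDSP1 (−0.61, adjusted p = 0.028). RPRD2 in S5A was lost without degron untreated replicate 1 (0.31, adjusted p = 0.12) or S5A untreated replicate 1 (0.29, adjusted p = 0.14), and with no filter (0.33, adjusted p = 0.17). CTDSP1 in S5A was lost without degron untreated replicate 1 (−0.49, adjusted p = 0.23) or either S5A library (−0.66, adjusted p = 0.12; −0.57, adjusted p = 0.16), and with mitochondrial scaling (−0.29, adjusted p = 0.36). RPRD2 in S2A (0.61 ± 0.09, adjusted p = 9.5e-06) and RPRD1B in S2A (0.50 ± 0.10, adjusted p = 0.00028) held under every alternative. All of these comparisons share the 2 untreated degron libraries.

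Against Mock, 6 of the 9 genes differed in the untreated degron line, where 64.8% of all tested genes did. RPRD1A was at 222 and 240 CPM in degron and at 84.3 and 85.7 CPM in Mock (1.44 ± 0.16, adjusted p = 5.6e-08). CTDSPL was at 58.7 and 56.2 CPM against 31.6 and 28.7 CPM (0.93 ± 0.11, adjusted p = 9.4e-08). CTDSP1 was at 65.8 and 56.2 CPM against 100.4 and 106 CPM (−0.76 ± 0.18, adjusted p = 0.00079), which mitochondrial scaling reduced to −0.18 (adjusted p = 0.47). RPAP2 (0.50), CTDP1 (−0.57) and RPRD1B (−0.30) were also called, and with mitochondrial scaling CTDP1 was at 0.00 and RPRD1B at 0.28. RPAP2 lost its call without either Mock library (0.55, adjusted p = 0.059; 0.46, adjusted p = 0.12) or degron replicate 2 (0.25, adjusted p = 0.31). CTDP1 lost it without Mock replicate 2 (−0.52, adjusted p = 0.08) or degron replicate 2 (−0.40, adjusted p = 0.19), and RPRD1B without Mock replicate 1 (−0.24, adjusted p = 0.12) or degron replicate 1 (−0.20, adjusted p = 0.15), with no filter (−0.25, adjusted p = 0.21) and with these 4 libraries alone (−0.245, adjusted p = 0.082). The A549 and deleted genes described above differ between the same libraries, and the lines and these markers cannot be told apart here.

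Other genes that write, read or erase CTD phosphorylation were grouped in lists. Among 4 relatives of the FCP and SCP phosphatases, CTDNEP1, which acts on lipin at the nuclear envelope, fell in 6 of 7 lines (−1.12 ± 0.14 in degron, adjusted p = 1.3e-06), and TIMM50, a mitochondrial import protein, fell in 5. UBLCP1 and CTDSPL2 were called in none. Among 11 genes of PP1 and PP2A complexes that act on the CTD, WDR82 fell in 6 lines (−0.80 ± 0.07 in degron, adjusted p = 7e-09) and PPP2CA, a catalytic subunit of PP2A, fell in 5. PPP1R10, which encodes the PP1 targeting protein PNUTS, rose in 6 lines, WT among them (0.68 ± 0.11, adjusted p = 0.0004). The median changes of the relatives lay between −0.47 (Y1F) and −0.12 (WT) and those of the PP1 and PP2A genes between −0.20 (S7A) and 0.015 (degron).

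The kinases of the CTD moved in both directions. Of 12 kinase and cyclin genes, CDK12, a serine 2 kinase, fell in 6 lines, with −1.01 ± 0.08 in degron (adjusted p = 1.8e-09) and −0.27 ± 0.08 in WT (adjusted p = 0.041). CDK9, the kinase of P-TEFb, fell in 4 (−0.98 ± 0.13 in S5A, adjusted p = 3.8e-06). Its cyclin CCNT1 rose in 4 (0.77 ± 0.18 in T4V, adjusted p = 0.0024) and the Mediator kinase CDK19 in 5 (0.86 ± 0.14 in Y1F, adjusted p = 6.1e-05). Of 3 further genes with a CTD-interaction domain, SCAF4 rose in 6 lines and the termination factor PCF11 in 5 (0.65 ± 0.11 in S2A, adjusted p = 5.8e-05), while SCAF8 fell in 4, with −1.93 ± 0.13 in degron (adjusted p = 3.8e-10). Of 5 genes for assembly and import of the polymerase, to which RPAP2 is also linked, GPN2 rose in 5 lines (0.43 ± 0.09 in degron, adjusted p = 0.00073). Of 3 partners, SYMPK, the scaffold that binds SSU72, fell in Y1F (−0.71 ± 0.19, adjusted p = 0.0043). No gene of these lists was called higher in any line with the authors' factors, so none of the rises passed on that scale. A missing call does not show that a rise is absent there. The median changes of the kinases and cyclins lay between −0.18 (S7A) and 0.20 (T4V), and those of the CTD-interaction genes between 0.12 (WT) and 0.48 (S2A).

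**Figure D5:**
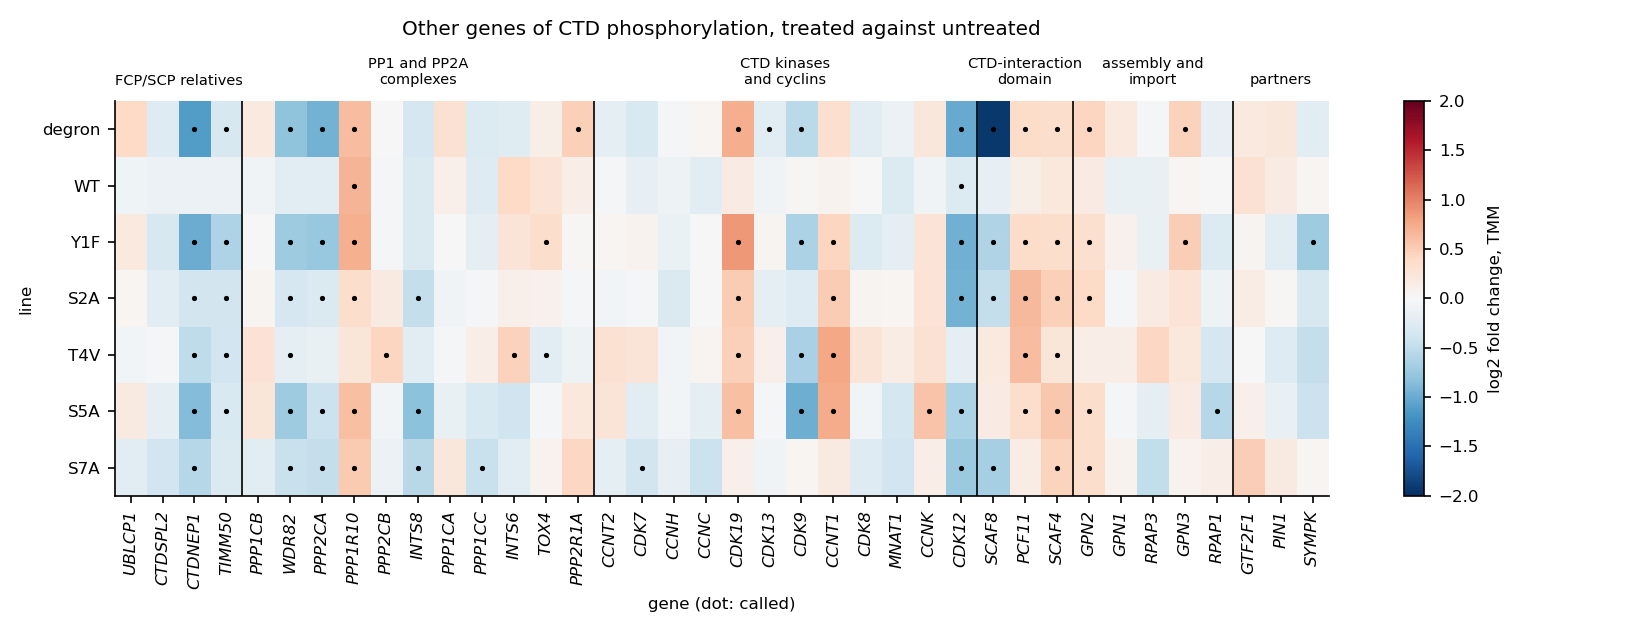
Log2 fold change (colour, TMM scaling, treated against untreated) of the related genes by list and line. Dots mark calls. WT has 2 dots (PPP1R10 and CDK12), and SCAF8 in degron is the deepest fall (−1.93). None of these genes was called higher with the authors' factors.

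For each member the genes of most similar pattern were found by Pearson's r of log2 CPM over the 15 group means, among the 11437 named genes, pseudogenes left out, whose mean over libraries was at least 5 CPM. These values describe patterns over groups that share lines and the Mock libraries, and carry no test. CTDSP1 was closest to CNPY3 (r = 0.972, and 0.976 over the 14 groups without Mock) and CDCA3 (0.971 and 0.964). CTDSPL was closest to RBBP7 (0.942 and 0.943), SSU72 to CYB561D2 (0.928 and 0.934), RPRD1A to ELP2 (0.966 and 0.949) and RPRD1B to UBR7 (0.952 and 0.952). RPAP2 was closest to ZNF721 (0.955 and 0.916), CTDP1 to ADO (0.887 and 0.864), CTDSP2 to ATF2 (0.872 and 0.881) and RPRD2 to RUFY1 (0.815 and 0.813). No member was the closest gene of another.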

How the data were processed

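RNA was extracted with TRIzol and made into poly(A) libraries that were read as 150-base pairs, per the labels' protocols. Reads were trimmed with Trim Galore 0.6.2, aligned with STAR 2.7.3a and counted with featureCounts 2.0.1, and per the submitters' processing notes the builds were hg38 and dm6. Which annotation release was counted, whether strand was used and how multi-mapped reads were handled is not given in the sources used here. A spike-in of S2 fly cells is named in the protocols, but the tables list 0 fly genes, so it was not used here. The deposited values are raw counts per gene and library, TPM made from those counts with 1 length per gene, and, in the authors' comparison tables, a base mean signal, a log2 fold change and p-values from DESeq2 1.24.0, per the submitters' processing notes. The authors' size factors were solved from the deposited counts and base means, up to a constant per line.

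Counts of all 30 libraries (10866089 to 17912802 per library) were fitted at once with edgeR 4.0.16 in R 4.3.3: TMM scaling, filterByExpr (minimum count 10, total 15), 1 coefficient per group, the robust quasi-likelihood test with 15 residual degrees of freedom, and Benjamini-Hochberg adjustment over 19982 genes within each comparison. A group of 2 cannot pass a permutation test, so the spread was shared over groups. The script was checked on simulated counts. Comparisons were treated against untreated in 7 lines, 6 differences between those changes, and 7 of untreated groups. Alternatives were DESeq2 1.42.0 (size factors and Wald test), mitochondrial scaling, the authors' factors, other filters, a replicate block, own libraries alone and each library left out. Named genes are the 9 members, POLR2A, up to 2 called genes per list, line and direction with the largest change (at least 5 CPM), and the 2 most similar genes per member. The 9 genes are a named group, but that group and the lists were chosen with earlier results of these data known.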

Additional observations from a re-analysis of the deposited data

Results flagged for a closer look

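In 12 cases the change of a gene on treatment differed between 2 lines by a test of the difference itself (edgeR, adjusted p under 0.05, TMM scaling). CTDSP1 gave 5 of them: WT minus degron 1.42, Y1F minus WT −1.05, S2A minus WT −0.98, T4V minus WT −1.41 and S5A minus WT −1.76 on the log2 scale. CTDSPL gave 3: WT minus degron 0.52, Y1F minus WT −0.61 and S2A minus WT −0.725. RPRD2 gave 2, WT minus degron 0.56 and S2A minus WT −0.66. CTDSP2 gave 1, WT minus degron 0.83, and RPRD1B gave 1, T4V minus WT 0.50. Doxycycline was given to the treated WT line and not to the degron line, and the 4 WT libraries enter all 12.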

How the results depend on the processing

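Directions depended mainly on how libraries were scaled, and the cause was not tested. With mitochondrial scaling these log2 changes turned negative: RPRD1B in degron (−0.34), S2A (−0.053), T4V (−0.053), S5A (−0.56) and S7A (−0.35), RPAP2 in S2A (−0.45), T4V (−0.525) and S5A (−0.19), RPRD2 in Y1F (−0.31) and T4V (−0.44), CTDSP2 in T4V (−0.25) and S5A (−0.68), and SSU72 in S2A (−0.42). Against Mock, CTDP1 (0.004), RPRD1B (0.28) and RPRD2 (0.40) turned positive. With the authors' factors these turned negative: RPAP2 in degron (−0.28), Y1F (−0.42), S5A (−0.405) and S7A (−0.60), RPRD1A in degron (−0.555) and Y1F (−0.84), RPRD1B in degron (−0.715), Y1F (−0.72), S2A (−0.072), S5A (−0.77) and S7A (−0.77), RPRD2 in Y1F (−0.83), SSU72 in S2A (−0.44), CTDSP2 in T4V (−0.11) and S5A (−0.90), and CTDP1 in S5A (−0.66). The authors' factors could not be applied to comparisons of untreated groups.

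Counts of called members moved by over 1.5 times as follows. With the authors' factors they were 0 in WT, 8 in Y1F, 8 in S5A and 9 in S7A for treated against untreated, and against WT 5 in S7A, 5 in S5A, 1 in T4V and 6 in Y1F. With mitochondrial scaling they were 7 lower in S5A (background 56.8% lower, 10.6% higher) and 7 lower in S7A (38.3% and 9.27%). Against WT they were 4 lower in T4V (10.6% and 0.13%) and 5 lower in S5A (34.8% and 1.88%). In untreated T4V 2 were higher (13.3% higher, 3.25% lower). With no filter they were 0 in WT, 3 in S2A, and 1 in Y1F and 1 in T4V against WT. With a mean of at least 5 CPM they were 2 in S5A against WT and 2 in untreated T4V. With the DESeq2 size factors untreated Y1F had 1, and with the DESeq2 test untreated Y1F had 4 and untreated T4V 2. With the libraries of the compared lines alone they were 0 in WT, 2 in T4V, 2 for WT minus degron, 0 (Y1F), 1 (S2A) and 0 (T4V) against WT, and 1 (Y1F) and 0 (T4V) among untreated lines. Shares of all tested genes under these filters, DESeq2 settings and library sets are not given here, so those counts describe the 9 genes only.

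Without each library in turn, called members were 4 to 5 in degron, 0 in WT, 3 to 4 in Y1F, 3 to 5 in S2A, 4 to 6 in T4V, 3 to 4 in S5A and 3 in S7A for treated against untreated. They were 3 to 5 for WT minus degron and, against WT, 1 to 4 in Y1F, 2 to 4 in S2A, 1 to 2 in T4V, 1 to 2 in S5A and 0 in S7A. Among untreated groups they were 4 to 5 for degron against Mock and, against degron, 0 to 2 in WT, 1 to 2 in Y1F, 3 to 4 in S2A, 1 to 3 in T4V, 0 to 3 in S5A and 3 to 5 in S7A. A lone remaining library was assumed to vary like the other groups.

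Replicate numbers gave no pairing common to the lines: deviations of same-numbered libraries correlated at −0.719 (degron), −0.462 (WT), −0.568 (Y1F), 0.094 (S2A), −0.079 (T4V), 0.009 (S5A) and 0.616 (S7A) over 11654 genes. In S7A same-numbered libraries deviated alike, and a pairing within single lines was not tested. With the replicate number as a block, T4V minus WT had 1 called member and untreated Y1F 1. The block ended the calls of CTDSP2 in S2A (−0.26, adjusted p = 0.054), RPRD1B in T4V minus WT (0.50, adjusted p = 0.052) and RPAP2 in untreated Y1F (0.54, adjusted p = 0.059), and changed no other call. It is 1 shift per gene shared by all groups, so it cannot take up deviations that differ between lines. Scaling by fly genes was planned and not run, since the tables list 0 of them. Depth was at least 131 counts for a member in a library.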
